A study of Mus musculus with 24 samples.

Results

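Cdx2 binding was examined around 6 genes that encode intestinal and gut identity factors: the caudal-type homeobox genes Cdx2, Cdx1 and Cdx4, the intestine-specific homeobox gene Isx, the pancreatic and duodenal homeobox gene Pdx1, and Satb1, which encodes an organiser of chromatin loops. A Cdx2 peak was counted for a gene when its summit, the base with the highest pileup, lay in the gene body or within 50 kb of either end. Peaks of different libraries that overlapped were merged into regions. The windows of the 6 genes held 96 peaks in 21 of the 61454 regions of the genome. Isx held 9 of these regions and the other 5 genes together held 12. The 2 regions next to Cdx2 also fall within the window of Pdx1, its neighbour on chromosome 5, and were counted once.

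Cdx2 is a homeodomain transcription factor that specifies the intestinal epithelium in the embryo and maintains it in the adult, and genes of the stomach are switched on in intestinal cells that lose it. Cdx1 is a close relative that is also expressed in the adult intestine, whereas Cdx4 acts mainly in the early embryo. Isx is known as a repressor in the intestinal response to retinoic acid, where it limits the uptake and cleavage of carotenoids. Peaks of Cdx2 at its own gene would be places where the factor could act on its own expression, and this is the question that the Cdx2 locus addresses. Peaks record binding only, so an effect on expression was not tested.

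The organoids were grown from the first 1 cm (proximal) or the last 1 cm (distal) of the colon of 3 female mice aged 8 weeks and had been cultured for 4 months. All groups share the genotype, which is heterozygous for a Cre-inducible BrafV600E allele and for a tdTomato reporter allele. The sources used here do not say that Cre was given to the organoids used for chromatin, and the study treats them as normal organoids. The WENR-plus medium contains Wnt3a, EGF, Noggin and R-spondin. The WENR-minus groups were kept in WENR-plus medium for 2 days after plating and then for 3 days without these factors. Site and medium together give 4 groups, and each had 3 Cdx2 libraries, numbered 1 to 3. Organoids lack the stroma, immune cells and microbes of the colon. Each library averages over many organoids, and the study's methods do not give the number of wells per library. No expression was measured with these libraries, so the site of origin could not be checked against marker genes.

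The peak lists differed in length from 5608 to 42192 peaks, and this bears on every count that follows. The 3 longest lists were proximal, but the list of distal WENR-minus 1 was longer than 3 of the 6 proximal ones. The proximal lists held 32033, 42192 and 13592 peaks in WENR-plus and 27921, 15940 and 11409 in WENR-minus, against 7378, 13371 and 5608 in distal WENR-plus and 21040, 7895 and 7904 in distal WENR-minus. The lists themselves hold no read totals, and the depths stated by the authors for each library did not enter the counts. By those depths the distal WENR-plus libraries were the shallowest, while distal WENR-minus and proximal libraries overlapped. The share of reads in peaks, also stated by the authors, was mostly lower in distal than in proximal libraries, with overlap. How far these differences bear on the folds and calls below was not tested. Each peak is described by its fold and its fold percentile. The fold is the enrichment of the pileup at the summit over the matched input background. The fold percentile is the rank of that value within the list of the same library, from 0 to 100. A longer list adds weaker peaks below a given peak and so raises its percentile. Percentiles are therefore given mainly as descriptions of each list. Where those of different lists are set side by side, pooled or tested below, list length enters the result.

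Of the 21 regions, 5 were called in 1 library, 7 in at least 6 libraries and 1 in all 12. Over all regions of the genome, 42.2% were called in 1 library, 19.9% in at least 6 and 3.38% in all 12. The peaks at Isx had a median fold percentile of 73.0 and 44 of 62 were above the 50th percentile of their list. The peaks at the other 5 genes had a median of 41.7 and 12 of 29 were above it. These counts take the strongest peak of a library in each region. Each of the 6 genes had a region in at least 1 library, as did 84.5% of the 21938 protein-coding genes. Cdx1, Cdx4 and Isx had a region called in at least 6 libraries, which 44.5% of genes had, and Isx alone among the 6 had a region called in all 12, which 12.9% of genes had.

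**Figure D1:**
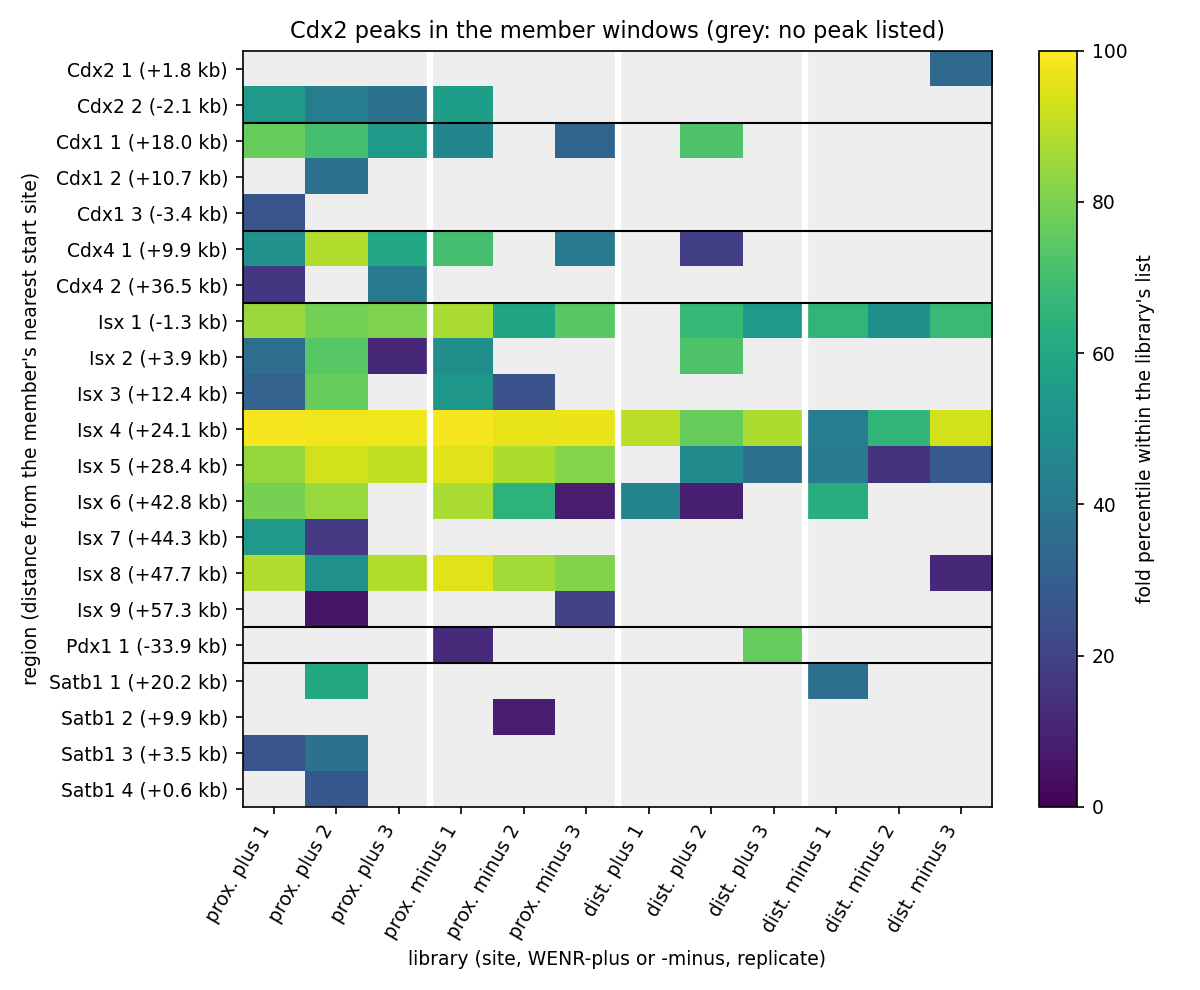
Fold percentile of the Cdx2 peak (colour, 0 to 100) in each of the 21 regions (rows, with the distance in kb from the nearest start site of the gene) and each of the 12 libraries (columns, by site, medium and replicate). Grey marks a region with no listed peak. Isx 4 is filled in all 12 columns, Isx 1 and Isx 5 in 11, and the rows of Cdx2, Pdx1 and Satb1 are filled in at most 4.

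The Cdx2 gene (ENSMUSG00000029646.3, chr5:147300805-147307270, minus strand, mm10) had 2 regions, both within 3 kb of its start site and both weak. The first, called Cdx2 2, lay 2078 bp upstream of the start in intergenic sequence (chr5:147309087-147309679). It was listed in all 3 proximal WENR-plus libraries with folds of 5.39, 4.82 and 5.71, and in proximal WENR-minus 1 with a fold of 5.13. It was listed in none of the 6 distal libraries, and its fold percentiles of 37.2 to 55.6 put it near the middle of those lists. Fisher's exact test of 4 of 6 against 0 of 6 libraries gave p = 0.0606 and an adjusted p of 0.582 over the regions called in at least 2 libraries. This test, here and below, counts both media of a site and number as separate libraries. They may share an organoid line, and its p-values may therefore be too small. The second, called Cdx2 1, lay in an intron 1781 bp downstream of the start (chr5:147305307-147305614) and was listed in distal WENR-minus 3 alone, with a fold of 5.24 and a fold percentile of 34.0. It was the only region of the 21 that was called more often in distal than in proximal libraries, and 9.08% of all regions were.

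Neither Cdx2 region appeared in any library when each list was reduced to its 5608 strongest peaks by p-value, the length of the shortest list. Cdx2 1 missed this limit narrowly, at rank 5664 in distal WENR-minus 3. The best rank of Cdx2 2 was 7064, in proximal WENR-plus 3. Cdx2, Isx and Satb1 were the genes of the 6 with a peak within 3 kb of a start site in at least 1 library, and 22.7% of protein-coding genes had one. With a limit of 1 kb only Satb1 was left. The sequences at both Cdx2 regions are given because they are the places where the factor was found at its own gene. Each shows the 50 bases to either side of the strongest summit on the plus strand of mm10, with matches to the Cdx motif in capitals. The motif was TTTATGG or else TTTATGA, or with T at the next-to-last base TTTATTG or else TTTATTA, on either strand.
Cdx2 2, chr5:147309327-147309427: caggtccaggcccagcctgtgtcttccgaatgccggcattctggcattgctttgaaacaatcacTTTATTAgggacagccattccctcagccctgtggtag
Cdx2 1, chr5:147305439-147305539: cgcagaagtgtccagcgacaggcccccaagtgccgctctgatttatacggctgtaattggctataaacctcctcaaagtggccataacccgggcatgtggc
The upstream region holds TTTATTA 17 bp from the summit of proximal WENR-plus 3. The summit window of the other 3 libraries with that peak did not reach a match. The same 101 bases also hold CTTTGAA, one of the motifs searched for TCF and LEF factors, the nuclear partners of Wnt signalling. The intronic window holds no match to the listed forms of the Cdx motif, and looser forms were not searched. It does hold CAAAGT, the letters searched for the nuclear receptor HNF4.

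Cdx1 (ENSMUSG00000024619.8, chr18:61018862-61036199, minus strand) had 3 regions. The most frequent, Cdx1 1 (chr18:61018026-61018390), lay 678 bp past the end of the gene, 18015 bp from its start site and 3962 bp from the start of its neighbour Slc6a7. Its folds were 6.97, 6.27 and 6.65 in the proximal WENR-plus libraries, 4.84 and 5.18 in proximal WENR-minus 1 and 3, and 7.55 in distal WENR-plus 2. The fold in the distal library that had the peak was thus above all 5 proximal folds, while the other 5 distal libraries had no peak there. The presence in 5 of 6 proximal against 1 of 6 distal libraries gave a Fisher's exact p of 0.0801 (adjusted p = 0.663). The remaining regions of Cdx1, an intronic one and one 3428 bp upstream of the start, were each listed in 1 proximal WENR-plus library, with folds of 4.70 and 4.44. No peak lay within 3 kb of the Cdx1 start.

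Cdx4 (ENSMUSG00000031326.2, chrX:103321398-103330592, plus strand) had 2 regions. Cdx4 1 (chrX:103331072-103331513) also lay just past the gene, 690 bp from its end and 9884 bp from its start, and was listed in the same 6 libraries as Cdx1 1. Its folds were 5.32, 9.09 and 7.05 in proximal WENR-plus, 6.18 and 5.55 in proximal WENR-minus 1 and 3, and 4.89 in distal WENR-plus 2, the lowest of the 6. Its fold percentile ran from 18.7 in that distal library to 88.3 in proximal WENR-plus 2, the longest list of the 12. The other region, in an intron of the neighbouring gene Chic1, was listed in proximal WENR-plus 1 and 3.

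The sequence at Cdx4 1 is shown because the region reached 6 libraries. Its motif, TTTATGG, lies 17 bp from the strongest summit. A match lay within 50 bp of the summit in 3 of the 6 libraries.
Cdx4 1, chrX:103331200-103331300: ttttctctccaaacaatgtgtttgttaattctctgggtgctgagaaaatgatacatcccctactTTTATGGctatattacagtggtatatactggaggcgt

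Isx (ENSMUSG00000031621.9, chr8:74873173-74893506, plus strand) was the gene of the 6 with the most Cdx2 binding. Its window held 9 regions, from 1336 bp upstream of the start to 57346 bp downstream of the nearest start, and 5 of them were called in at least 6 libraries. At least as many regions were found at 7.64% of protein-coding genes, and a density at least as high as its 7.48 regions per 100 kb was found at 2.56%. The 5 frequent regions were Isx 1 upstream of the gene and Isx 4, Isx 5, Isx 6 and Isx 8, which all lay past the end of the gene, 4114 to 27692 bp from it. Isx is the nearest protein-coding gene to all of them by start site. The sequences of the 4 regions with the highest median fold percentile are given in the same format as above, with Isx 4 extended to reach its nearest motifs.
Isx 1, chr8:74871759-74871859: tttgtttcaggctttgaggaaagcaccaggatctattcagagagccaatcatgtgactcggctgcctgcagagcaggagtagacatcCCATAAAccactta
Isx 4, chr8:74897554-74897774: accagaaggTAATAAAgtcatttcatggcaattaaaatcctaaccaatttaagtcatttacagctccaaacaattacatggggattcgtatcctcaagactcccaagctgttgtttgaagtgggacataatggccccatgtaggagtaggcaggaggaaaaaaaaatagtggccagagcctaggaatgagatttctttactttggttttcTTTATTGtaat
Isx 5, chr8:74901909-74902009: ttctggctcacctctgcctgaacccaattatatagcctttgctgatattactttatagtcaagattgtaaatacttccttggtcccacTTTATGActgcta
Isx 8, chr8:74921181-74921281: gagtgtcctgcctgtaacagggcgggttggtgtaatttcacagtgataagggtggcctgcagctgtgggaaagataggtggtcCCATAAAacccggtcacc
The motif centre lay 40 bp from the strongest summit in Isx 1, 41 bp in Isx 5 and 36 bp in Isx 8. At Isx 4, the strongest region of the 21, the nearest match lay 58 bp from the strongest summit, outside the 50 bp window, and the next lay 143 bp to the other side. The summits of single libraries differed. A match lay within 50 bp of 5 of 11 library summits in Isx 1, 4 of 12 in Isx 4, 7 of 11 in Isx 5 and 3 of 7 in Isx 8.

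Isx 1 (chr8:74871510-74872242), the upstream region, was listed in 11 libraries. Its folds were 8.24, 7.21 and 9.79 in proximal WENR-plus and 8.87, 6.37 and 8.15 in proximal WENR-minus. They were 7.11 and 6.83 in distal WENR-plus 2 and 3, and 5.87, 5.92 and 6.99 in distal WENR-minus. The 2 sites overlapped, with 6.37 to 9.79 in proximal and 5.87 to 7.11 in distal libraries. Among protein-coding genes, 2.03% had a peak within 3 kb of a start site in at least 11 libraries.

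Isx 4 (chr8:74895859-74898033) was the only region of the 6 genes called in all 12 libraries, and was still listed in 11 after each list was reduced to its 5608 strongest peaks. Its folds were 19.0, 17.4 and 21.5 in proximal WENR-plus and 21.8, 16.3 and 18.5 in proximal WENR-minus. They were 10.1, 8.0 and 10.5 in distal WENR-plus and 5.02, 6.70 and 11.9 in distal WENR-minus. All 6 proximal values lay above all 6 distal values, which was the case at 11.8% of the 2079 regions that all 12 lists held. The reverse was found at 0.0962% of them. The fold percentiles were 96.7 to 98.7 in proximal and 42.5 to 93.0 in distal libraries, a separation found at 5.58% of those regions, and list length moves with the site. By rank of p-value within the list the sites overlapped, with ranks of 392 to 827 in proximal and 654 to 9180 in distal libraries. The strongest summits of the 12 libraries fell between positions 74897494 and 74897646.

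After centring each library on its median log2 fold over the 2079 regions, Isx 4 was 0.80 log2 units higher in proximal than in distal libraries (SE 0.21, 1.74-fold, limma with Benjamini-Hochberg adjusted p = 0.0165), with mean centred values of 0.73 and -0.07. In the same limma fit 9.28% of the regions were called higher in proximal and 7.65% lower, and 4.57% had a difference at least as high as that of Isx 4. The medium moved Isx 4 by 0.08 log2 units (SE 0.21, adjusted p = 0.943), and the interaction of site and medium was -0.50 (SE 0.42, adjusted p = 0.998). For the medium contrast 0.192% of regions were called higher and 0.577% lower in WENR-plus, 16 in all. With the replicate number as a block 76 regions were called for medium, and the adjusted p of Isx 4 was 0.0024 for site and 0.882 for medium. The call for the site was lost in some alternatives and kept in others. Without replicate 1 the difference was 0.68 (limma adjusted p = 0.132) and without replicate 2 it was 0.76 (adjusted p = 0.146). Without replicate 3 it was 0.94 (limma adjusted p = 0.0094). On the percentile scale it was 21.8 points (limma adjusted p = 0.142). The fit counts both media of a site and number as separate samples although they may share an organoid line. With the mean of both media as 1 value, an alternative chosen after seeing the data, the adjusted p was 0.0475.

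Isx 5 (chr8:74901637-74902350) lay 8479 bp past the gene and was listed in the same 11 libraries as Isx 1. Its folds were 8.23, 11.3 and 13.5 in proximal WENR-plus and 13.2, 9.91 and 9.34 in proximal WENR-minus. They were 6.05 and 5.97 in distal WENR-plus 2 and 3 and 4.90, 4.68 and 5.06 in distal WENR-minus. No distal value reached a proximal one, a pattern found at 11.6% of the 3242 regions called in at least 11 libraries. The library without Isx 1 and Isx 5 was distal WENR-plus 1, which had 2 of the regions near the 6 genes, and without replicate 1 all 3 of Isx 1, Isx 4 and Isx 5 were called in every library left.

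Isx 8 (chr8:74920595-74921697), 27692 bp past the gene, was the region with the largest difference in presence between the sites. It was listed in all 6 proximal libraries, with folds of 8.90, 5.13 and 12.1 in WENR-plus and 12.9, 9.55 and 9.26 in WENR-minus. In distal organoids it was listed in WENR-minus 3 alone, with a fold of 4.37 and a fold percentile of 11.1. Fisher's exact test of 6 against 1 of 6 libraries gave p = 0.0152, and 4.96% of the 35518 regions called in at least 2 libraries had p under 0.05 in this direction and 0.282% in the other. Its adjusted p was 0.289. The smallest Fisher's exact p for 6 against 6 libraries is 0.00216 and the lowest adjusted p was 0.114. Thus 0 of the 35518 regions passed after adjustment, with 1761 more often proximal and 100 more often distal at an unadjusted p under 0.05.

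Isx 6 (chr8:74916047-74916498) was listed in 5 proximal and 3 distal libraries, with folds of 4.07 to 8.87 and 4.44 to 6.17, and these ranges overlapped. The other 4 Isx regions were less frequent. Isx 2 and Isx 3, in introns, were listed in 5 and 4 libraries, and Isx 7 and Isx 9, downstream of the gene, in 2 each. Of these 13 calls, 12 were in proximal lists, which held 69.4% of all listed peaks.

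**Figure D2:**
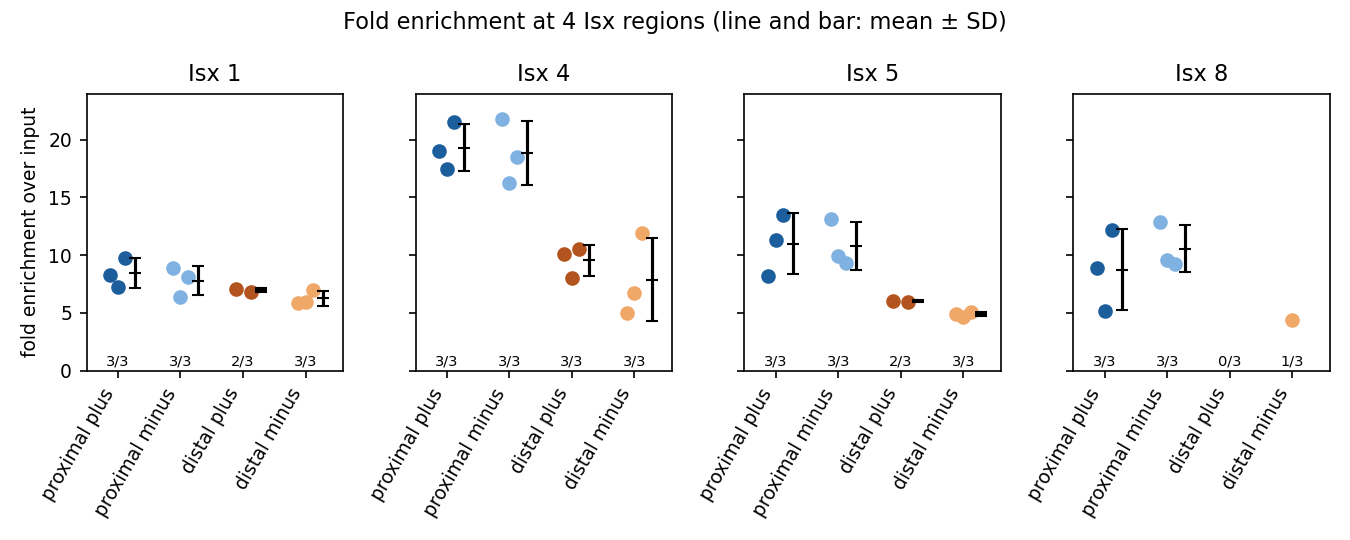
Fold enrichment over input (vertical axis) at 4 Isx regions in each library, by group (horizontal axis, "plus" and "minus" for the medium); the numbers at the base give the libraries with a peak of 3, and the line with bar is the mean ± SD of the libraries with a peak. At Isx 4 the proximal libraries lie between 16.3 and 21.8 and the distal libraries between 5.02 and 11.9, while Isx 8 has 1 distal point.

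Pdx1 (ENSMUSG00000029644.7, chr5:147269959-147275848, plus strand), which is needed for the pancreas and patterns the duodenum, had 1 region besides the 2 it shares with Cdx2. It lay 33924 bp upstream in an intron of Plut, a non-coding gene (chr5:147235862-147236115). It was listed in proximal WENR-minus 1 with a fold of 3.76 and in distal WENR-plus 3 with a fold of 8.53. The fold percentiles there were 12.3 and 76.4. No peak lay within 3 kb of a Pdx1 start site in any library.

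Satb1 (ENSMUSG00000023927.15, chr17:51736187-51833290, minus strand) had 4 regions, listed in 1 or 2 libraries each, with folds of 4.25 to 5.64. The region called in the proximal WENR-plus 2 library alone (chr17:51810047-51810400) lay in an exon, 595 bp from an annotated alternative start of the gene. It ranked 31432nd by p-value among the 42192 peaks of that list, at a fold of 4.39. The others lay in an exon near the 3' end of the gene and past that end. Over its gene body and flanks of 197 kb in all, Satb1 thus had fewer regions than Isx in a window of 120 kb.

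**Figure D3:**
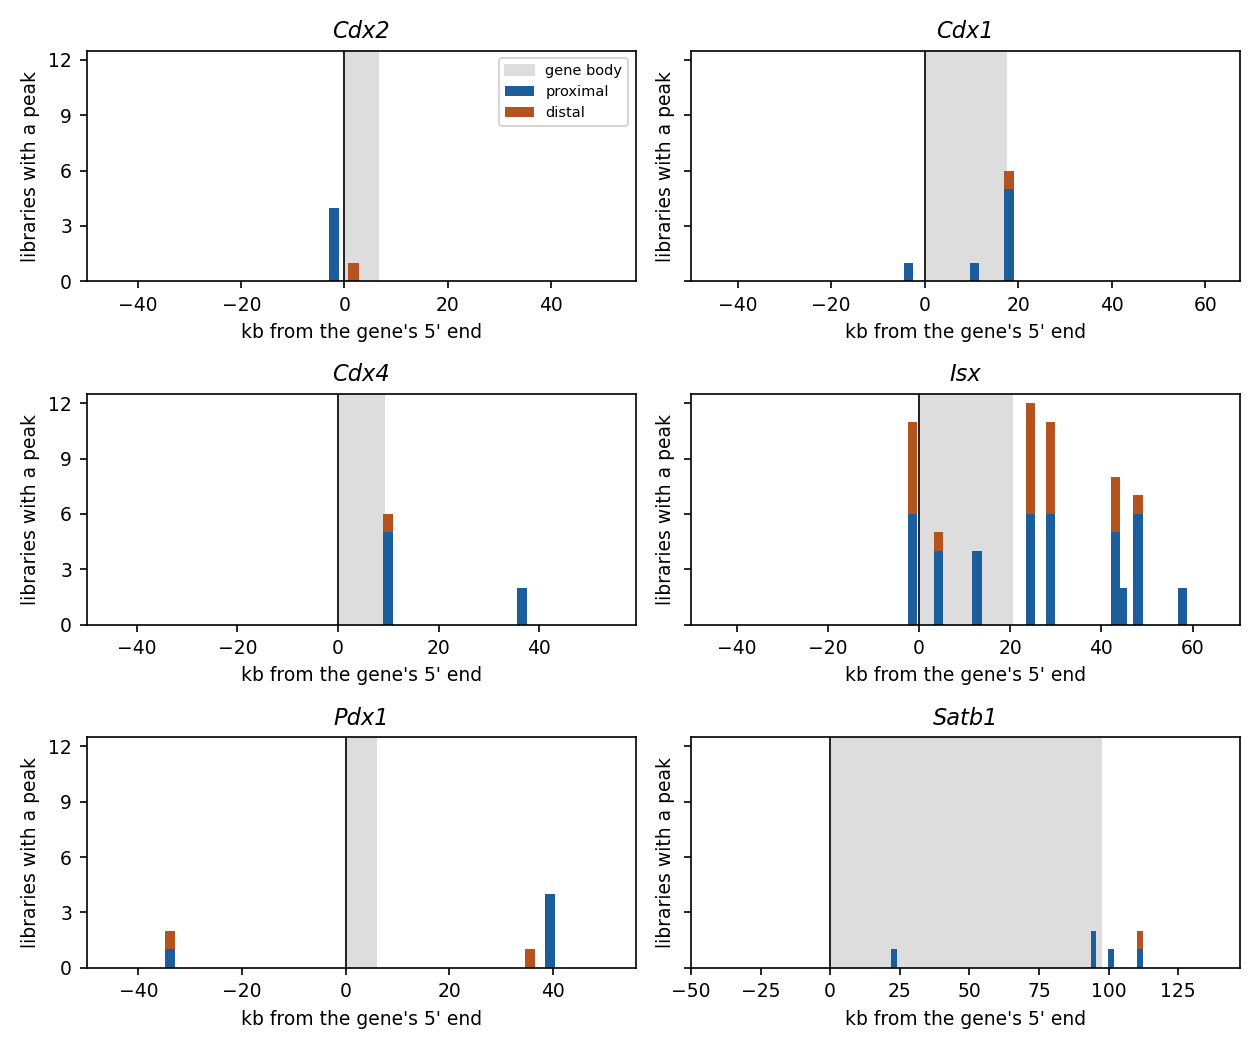
Number of libraries with a peak (vertical axis, proximal in blue and distal stacked in orange) at each region, by distance in kb from the 5' end of the gene in its own direction; grey marks the gene body and the axis covers the window of 50 kb to either side. The bars of Isx reach 11 and 12 libraries and stand mostly past the gene, whereas those of the other 5 genes reach at most 6.

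The number of peaks in the windows of the 6 genes was compared between sites and media. Every listed peak was counted. The counts here and in the next paragraph thus include 5 weaker side peaks of Isx 4. These were listed apart from its main peak in 4 proximal and 0 distal libraries. The comparison was not repeated with 1 peak per region. Proximal WENR-plus libraries had 15, 16 and 11 peaks and distal WENR-plus libraries 2, 7 and 4, a difference of 9.67 between means of 14.0 ± 2.65 and 4.33 ± 2.52 (SD, n = 3 each; two-sided exact permutation p = 0.1). Proximal WENR-minus libraries had 11, 8 and 9 peaks and distal WENR-minus libraries 5, 3 and 5, a difference of 5.00 between means of 9.33 ± 1.53 and 4.33 ± 1.15 (exact permutation p = 0.1). The groups did not overlap in either medium, and 0.1 is the smallest p that 3 against 3 libraries allow. WENR-plus exceeded WENR-minus by 4.67 peaks in proximal organoids (exact permutation p = 0.2) and by 0 in distal organoids (exact permutation p = 1), and the ranges met at 11 peaks in the former and overlapped in the latter. Adjusted over the 4 comparisons the p-values were 0.2, 0.2, 0.267 and 1.

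The differences between sites were smaller relative to the length of the lists. Per 1000 peaks of a list, proximal WENR-plus libraries had 0.552 ± 0.227 and distal WENR-plus libraries 0.503 ± 0.222 (n = 3 each; exact permutation p = 0.8). In WENR-minus the values were 0.562 ± 0.204 and 0.417 ± 0.200 (n = 3 each; exact permutation p = 0.4). With all lists cut to 5608 peaks, the site difference was 0.333 peaks in WENR-plus (exact permutation p = 1) and 2.67 in WENR-minus (exact permutation p = 0.2). Of the 21 regions, 17 were called in more proximal than distal libraries, and 80.6% of all regions were. By medium, 10 were called in more WENR-plus libraries, which was so for 53.3% of all regions, 5 in more WENR-minus libraries and 6 in equal numbers. No region of the 6 genes was called in all libraries of a site and in none of the other, which 1.8% of the 35518 regions were for proximal and 0.0957% for distal.

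**Figure D4:**
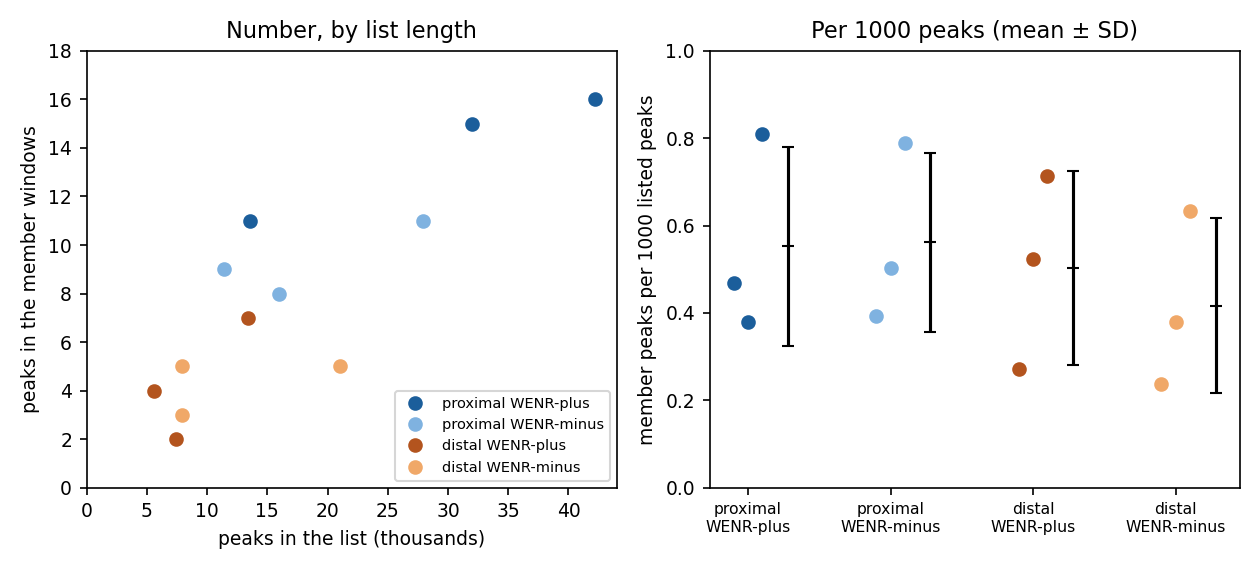
Left, peaks in the windows of the 6 genes (vertical axis) against the length of the library's list (horizontal axis, the number of peaks divided by 1000), 1 point per library coloured by group; right, the same peaks per 1000 listed peaks by group, with mean ± SD (n = 3). The longest list has 16 of these peaks and the shortest 4, with exceptions to this order such as distal WENR-minus 1 with 5 of its 21040 peaks, and per 1000 peaks the groups overlap.

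The Cdx motif lay within 50 bp of the strongest summit in 13 of the 21 regions, 61.9% (95% Wilson interval 40.9 to 79.2, which covers counting error only). In all regions the share was 57.4%, and in windows of the same length 1000 bp to either side it was 11.6%. At Isx 7 of 9 regions held it and at the other 5 genes 6 of 12, and the flanking windows of the 21 regions held it in 2 of 42. The promoter sequences of RefSeq (GRCm38.p6, 250 bases before to 50 after a start) were searched for the same letters. A match was found in 14.4% of the 32851 promoters, and in none of those matched by symbol to Cdx2, Cdx4, Isx, Pdx1 (1 each) and Satb1 (5). The table held no entry for Cdx1.

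The same counts were made for 2 lists of other factors. Of 20 partner factors of the intestinal epithelium, all had a region, with a median of 5 (1 to 27), against a median of 3 for the 6 genes and 2 for all protein-coding genes. A region called in all 12 libraries was found at 6 of the 20 (12.9% of all protein-coding genes), and a peak within 3 kb of a start site in at least 1 library at 11 (22.7% of all). Hnf4a and Hnf4g, nuclear receptors of the enterocyte programme, and Gata6 had a peak within 3 kb of a start site in all 12 libraries. This was so for 284 of the 21938 protein-coding genes. Ehf had such a peak in 10 libraries and Foxa1 in 9. Of 16 foregut and pancreatic factors, 4 had no region at all (Sox2, Ptf1a, Neurog3 and Osr1), as did 15.5% of all protein-coding genes, and the median was 1.5 (0 to 7). In that list Pax6 and Pax9 had a promoter peak in 3 libraries each, and Mnx1 was the only gene with a region called in all 12. Cdx2 with 2 regions, and Cdx1 and Pdx1 with 3, were below the median of the partner factors, and Isx with 9 was above it.

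**Figure D5:**
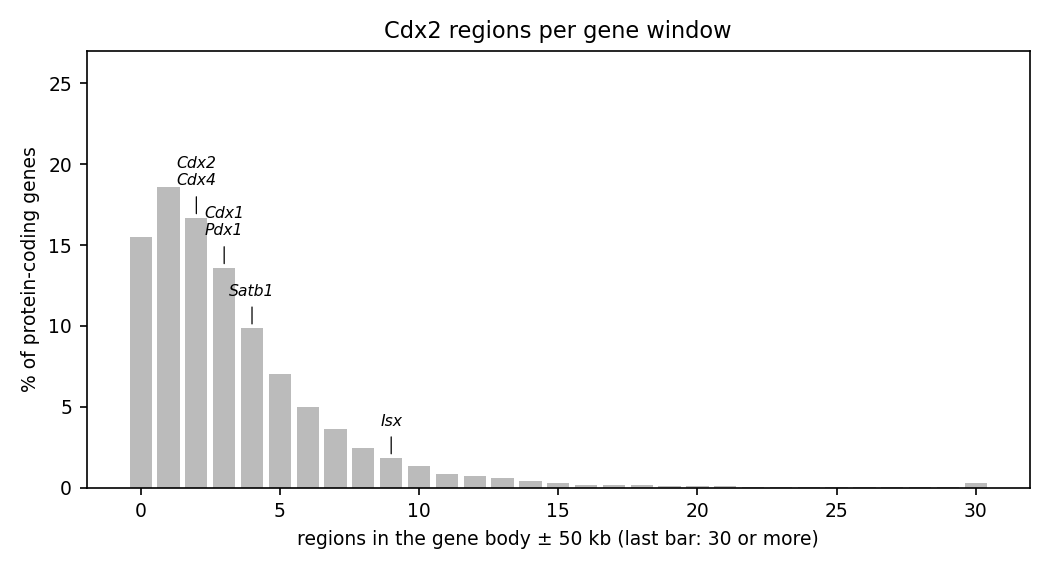
Share of the 21938 protein-coding genes (vertical axis, %) by the number of Cdx2 regions in the gene body and 50 kb to either side (horizontal axis, the last bar holding 30 or more), with the 6 genes marked. Cdx2 and Cdx4 have 2 regions, Cdx1 and Pdx1 3, Satb1 4 and Isx 9.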

How the data were processed

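ChIPmentation with a Cdx2 antibody was done on 12 organoid libraries. Per the labels, reads were trimmed by the authors (Trimmomatic 0.39) and mapped on mm10 (Bowtie2 2.4.5), alignments were handled in SAMtools 1.13, and each library was compared with its matched input in MACS2 2.2.7.1 at a q-value of 0.01 (the q-value from the study's methods). The supplement of the study names other versions of Bowtie2 and SAMtools than the labels do. The deposited lists give a score, the fold enrichment as a ratio of summit pileup to background, and −log10 p and −log10 q per peak. The 12 input libraries were not analysed here. Each value was made against its own library's depth and input, and the depths stated in the study's supplement entered no count or fit.

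Overlapping peaks (at least 1 bp) of the assembled chromosomes were merged. A fold percentile is the mid-rank within a list. Gene bodies and start sites came from GENCODE vM21, and distances are to the nearest annotated start of the gene. Peak numbers were compared by two-sided exact permutation and presence by Fisher's exact test (scipy 1.17.1) with Benjamini-Hochberg adjustment. Log2 fold was compared by limma 3.58.1 (threshold 0.05) over the 2079 regions that all 12 lists held. The limma step was tried on simulated independent libraries with shifts larger than that of Isx 4. That trial does not cover libraries that share an organoid line or smaller differences. Motifs were searched with pysam 0.24.0 in the GRCm38.p6 genome. Libraries of 1 number may come from 1 mouse, and the labels give numbers only, so the main tests treat the libraries as separate samples. The limma p-values rest on the spread between these libraries, and those of Fisher's exact test on presence alone. All 6 genes are named, and in full the regions called in at least 6 libraries, those within 3 kb of a start, and the strongest of each gene. From each of the 2 lists of other factors, at most 5 genes were to be named by promoter peaks; the genes with no region were named after their values were seen. The genes and lists were chosen with earlier results of these data known.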

Additional observations from a re-analysis of the deposited data

How the results depend on the processing

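Of the comparisons of peak number, the medium difference in proximal organoids changed sign from 4.67 to -0.00931 peaks per 1000 listed and to -0.667 in lists of equal length. The number of regions called in all 12 libraries went from 1 to 0 in lists of equal length and was 1 to 3 with a replicate number left out. The regions present in every proximal library and absent from every distal one went from 0 to 1 at −log10 q of at least 5 and ranged from 0 to 2 with a number left out, and the genes with a promoter peak went from 3 to 1 at 1 kb. The Cdx motif was found in 85.7% of the 21 regions within 100 bp. At Isx 4, the site difference kept its direction in all 8 alternatives on the log2 scale (0.54 to 1.18) and passed the threshold in 4; it was 0.54 in WENR-plus (adjusted p = 0.28) and 1.05 in WENR-minus (adjusted p = 0.0779) alone, 21.8 percentile points (adjusted p = 0.142), and 0.68 to 0.94 with a number left out. The medium difference ranged from -0.15 to 0.22 with a number left out, where -0.15 without replicate 1 is a change of sign.

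Regions past the limma threshold for site numbered 352, against 709 uncentred, 51 on percentiles, 42 to 331 with a number left out, 168 with means of both media, 23 in WENR-plus and 58 in WENR-minus. The last 3 were chosen after seeing the data. For medium they numbered 16, against 4 uncentred, 6 on percentiles and 0 to 4 with a number left out, and for the interaction 0, against 3 on percentiles. The cause of these shifts was not tested, beyond the fewer libraries of some fits. With the replicate number as a block, 471 regions passed for site and 76 for medium, the adjusted p of Isx 4 was 0.0024, and the paired exact permutation p of the peak numbers was 0.25, 0.25, 0.25 and 1, where 0.25 is the smallest possible. Taken as deviations from the mean of their group, same-numbered libraries of different groups correlated at -0.0098 to 0.57 (median 0.20, 13 of 18 pairs over 0.1). Other pairs of different groups had a median of -0.10. Such deviations cancel within a group, so the value of the other pairs follows largely from that of the same-numbered pairs. It is not a separate comparison. The study attributes the largest part of the variation in Cdx2 binding to the mouse of origin and the next to the colon site. The sources do not tie a number to a mouse and not every pair passed 0.1, so the block was kept as an alternative. The lists hold no read counts, so a region missing from a short list cannot be told apart from one below its detection limit.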

Other observations

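Isx 4 had a second, weaker set of summits 860 to 1483 bp on the gene side of its strongest summit. These 5 side peaks were listed separately in 4 proximal libraries, with folds of 4.44 to 7.03 and fold percentiles of 19.0 to 64.4, and in 0 distal libraries. In proximal WENR-minus 1 a single listed peak spanned the same stretch. The whole region of 2175 bp held 5 matches to the Cdx motif. The number in other stretches of this length was not counted. Of the windows of 50 bp to either side placed 1000 bp from the summits of all regions, 11.6% held a match.

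Other motifs at the 21 summits were counted within 50 bp. A GATA motif (AGATAA or else AGATAG, or with T as first base TGATAA or else TGATAG, either strand) lay in 7 regions, 33.3% against 26.6% of all regions, and 4 of the 7 were at Isx. The HNF4 letters CAAAGT lay in 2 regions, 9.52% against 8.43%, and the TCF/LEF letters CTTTGAT or CTTTGAA in 1, 4.76% against 5.53%.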
